A study of Mus musculus with 9 samples.

Results

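Of 97338 consensus regions of open chromatin, 217 had their nearest protein-coding start site in 1 of 10 genes of the extracellular matrix, and these 217 regions are described here. The genes were *Col1a1*, *Col1a2*, *Col3a1*, *Col5a1*, *Col5a2*, *Col6a3*, *Fn1*, *Lox*, *Sparc* and *Postn*, chosen for what their proteins do. ATAC-seq, which maps where a transposase can cut chromatin, was run on C3H/10T1/2 (CCL-226) cells, an established mouse line used as mesenchymal progenitor cells (MPCs). There were 3 libraries of WT cells and 3 of each *Atrx* KO clone, B10 and G7, 9 in all. The WT line was an isogenic control that had received Cas9 on a vector without a guide. Each KO clone came from its own CRISPR-Cas9 guide against *Atrx*, which encodes a chromatin remodeler, and grew from GFP-sorted cells, so each KO line is 1 clone and a clone and its guide cannot be told apart. The paper describes the sorting of single cells in a workflow that includes the control. It does not say whether the WT line is also 1 clone. The comparisons of B10 and G7 with WT share their 3 WT libraries. A consensus region is a stretch of touching peaks from any library that held a peak in at least 2 of 3 libraries of a line. The nearest start site only names a region, and it does not show that the region acts on that gene.

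Connective tissue owes its strength to collagen fibrils. Collagen I is built from the chains of *Col1a1* and *Col1a2*, collagen III from that of *Col3a1*, and collagen V, with chains from *Col5a1* and *Col5a2*, helps to set how fibrils start and how wide they grow. Collagen VI, with a chain from *Col6a3*, forms beaded filaments around cells, fibronectin from *Fn1* is a scaffold on which matrix assembles, lysyl oxidase from *Lox* cross-links collagen and elastin, and the proteins of *Sparc* and *Postn* bind collagen and tune its assembly. Mesenchymal cells are the main makers of this matrix.

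The libraries held 76385 to 88535 peaks, and the lists carry no read counts, so depth is unknown, and where a library had no peak the region counts as undetected in it. The level of a peak is given as its rank, the percentile of its −log10 q among all peaks of its own library, with 100 the highest. Within a line, replicates 2 and 3 were more alike (Spearman rho of ranks over 47431 regions 0.9692 to 0.9730) than either was to replicate 1 (0.8902 to 0.9269), so key values are also given without the replicate 1 libraries. A peak near the start was present in all 9 libraries for 10 of 11 mesenchymal markers (*Nt5e* had none), 1 of 5 epithelial, 2 of 5 endothelial and 1 of 5 blood markers. The start of *Atrx* ranked 80.8 to 86.0 over the 9 libraries, which says nothing of the protein.

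The sequences around the summits of the regions on which the results turn are shown first. Each is 121 bases centred on the summit of the strongest peak, on the plus strand of mm10, and lies outside annotated exons. Capitals mark exact matches on either strand to 6 short motifs. The motif of the AP-1 factors was taken as TGACTCA. That of NF-Y was taken as CCAAT. For the TEAD factors the letters GGAATG were used. For the SOX factors the letters CCTTTGT were used. The TATA box was searched as TATAAA. The letters of SP1 were GGGCGG. None of the motifs lies inside another. The first pair are neighbours in an intron of *Sparc*, on chromosome 11 at 55406153 to 55406273 and at 55404865 to 55404985. The *Col5a2* windows lie on chromosome 1, upstream of the gene at 45587764 to 45587884 and in an intron at 45428883 to 45429003. The *Col5a1* windows lie on chromosome 2, with a neighbouring pair upstream at 27847110 to 27847230 and 27848554 to 27848674 and an intronic window at 28008405 to 28008525. The *Postn* window lies past the end of the gene on chromosome 3, at 54392603 to 54392723.
Sparc intron, 13.7 kb after the start: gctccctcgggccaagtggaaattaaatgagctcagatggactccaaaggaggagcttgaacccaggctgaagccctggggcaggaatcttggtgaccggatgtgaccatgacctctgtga
Sparc intron, 14.97 kb after the start: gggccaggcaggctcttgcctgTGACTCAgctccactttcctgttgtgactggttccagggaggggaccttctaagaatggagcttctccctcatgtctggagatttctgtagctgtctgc
Col5a2, 84.5 kb before the start: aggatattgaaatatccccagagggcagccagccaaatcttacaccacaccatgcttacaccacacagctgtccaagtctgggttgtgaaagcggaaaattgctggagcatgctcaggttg
Col5a2 intron, 74.3 kb after the start: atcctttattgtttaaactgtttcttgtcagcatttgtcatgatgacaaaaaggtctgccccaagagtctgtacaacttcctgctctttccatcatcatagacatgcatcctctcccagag
Col5a1, 39.3 kb before the start: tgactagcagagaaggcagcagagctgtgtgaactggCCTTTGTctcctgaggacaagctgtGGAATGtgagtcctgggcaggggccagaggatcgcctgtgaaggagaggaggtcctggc
Col5a1, 37.8 kb before the start: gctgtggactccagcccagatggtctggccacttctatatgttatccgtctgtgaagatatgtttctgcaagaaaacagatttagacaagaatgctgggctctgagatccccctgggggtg
Col5a1 intron, 8.98 kb before the second start: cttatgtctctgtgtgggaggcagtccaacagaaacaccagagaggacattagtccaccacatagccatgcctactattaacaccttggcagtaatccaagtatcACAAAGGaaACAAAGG
Postn, 15.1 kb after the start: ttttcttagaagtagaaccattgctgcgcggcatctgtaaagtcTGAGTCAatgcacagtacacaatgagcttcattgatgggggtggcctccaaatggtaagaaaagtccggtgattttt

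The windows at *Sparc* and *Col5a2* whose rank rose most in B10 held none of the 6 motifs. The intronic *Col5a1* window held ACAAAGG, the SOX letters on the other strand, at a pair of places beginning 45 and 54 bases after the summit. The *Col5a1* window 39.3 kb upstream held CCTTTGT and, 2 bases past the summit, GGAATG. The *Postn* window held TGAGTCA, the AP-1 letters on the other strand. Within 100 bp of the summit, GGAATG was found in 49 of 217 matrix regions (22.6%) and in 16.0% of all consensus regions. GGGCGG was found in 12 (5.53%) and in 12.6% of all. The other shares were 19.8% and 18.4% for TGACTCA, 26.3% and 25.6% for CCAAT, 4.61% and 5.37% for CCTTTGT, and 8.76% and 7.91% for TATAAA. A match is a run of letters and not a bound site.

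The matrix regions were mostly distal. By place, 20 of 217 (9.22%) lay within 3 kb of a start site, against 18.5% of all consensus regions, and 133 (61.3%) were intergenic, against 43.1%. Their median width was 700 bp and their median GC content 48.8%, beside 665 bp and 49.3% over all regions. *Fn1* had 39 regions, *Col5a1* 37, *Col5a2* 27, *Col3a1* 26, *Col1a2* 20, *Col1a1* and *Col6a3* 18 each, *Sparc* 14, and *Lox* and *Postn* 9 each. Of the 217 regions, 110 lay on chromosome 1, which carries *Col3a1*, *Col5a2*, *Col6a3* and *Fn1*. A peak was present in all 9 libraries at 117 regions (53.9%, against 48.7% of all), and these entered the fit of ranks. The other 100 are described by presence.

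The region that stands for each gene's start, the highest-ranked one within 3 kb of it, had a peak in all 9 libraries. For *Postn* that region lay 2.40 kb before the start and did not cover it. For *Sparc* the region (chr11:55423577-55424351) did not cover a start either, and its summit lay 0.78 kb before the nearest. A lower-ranked *Sparc* region (chr11:55419430-55420231), with its summit 0.03 kb before a start, did cover one. *Fn1* ranked highest in WT, at 96.6 ± 0.569 (SD, n = 3 here and below), and its WT libraries did not overlap those of *Col5a2*, the next gene, at 90.2 ± 1.59. Below that, the WT libraries of each gene overlapped those of the next in the order *Col1a1* at 85.4 ± 4.32, *Col5a1* at 85.4 ± 2.63, *Sparc* at 83.6 ± 10.6, *Col1a2* at 82.9 ± 2.03, *Lox* at 81.1 ± 2.71, *Postn* at 80.0 ± 4.14, *Col6a3* at 73.0 ± 8.12 and *Col3a1* at 66.5 ± 5.58. None of the 10 start regions passed an adjusted p of 0.05 in any of the 3 comparisons by limma.

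**Figure D1:**
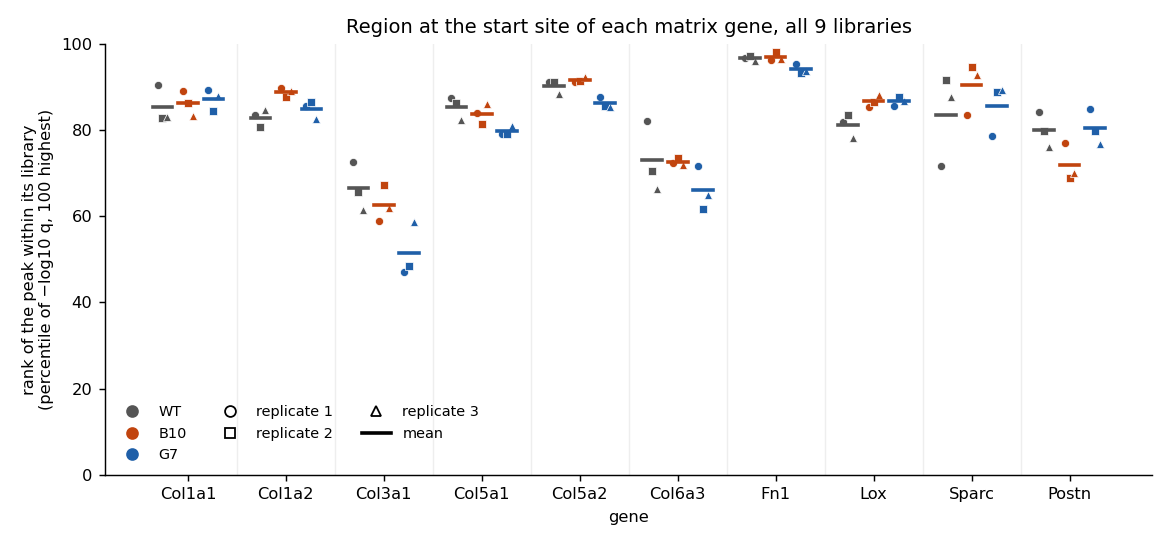
Rank (percentile of −log10 q within the library, 100 highest) of the region that stands for the start of each of the 10 matrix genes. For *Sparc* and *Postn* that region does not cover a start. Each point is 1 library, coloured by line and shaped by replicate, and bars are means of 3 libraries; *Fn1* sits at the top in all lines (means of 94.1 to 97.0), and *Col3a1* is the lowest in WT, B10 and G7 (66.5, 62.7 and 51.4).

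Several start regions had libraries that did not overlap between lines. The *Col1a2* start region (chr6:4505175-4507760) ranked 83.4, 80.6 and 84.6 in WT, 89.8, 87.7 and 89.0 in B10 and 85.7, 86.6 and 82.6 in G7. Every B10 library exceeded every WT library, and the means differed by 5.95 ± 1.60 points (SE, adjusted p = 0.0532), while the median difference of all regions within 5 Mb, its surroundings, was 6.41 points. The *Lox* start region ranked 81.8, 83.4 and 78.1 in WT, 85.4, 86.6 and 88.1 in B10 and 85.7, 87.8 and 86.9 in G7. Its differences were 5.54 ± 1.64 (adjusted p = 0.0693) and 5.66 ± 1.64 (adjusted p = 0.0853), and its surroundings moved by 4.38 and 2.90. The *Col3a1* start region ranked 72.5, 65.7 and 61.4 in WT and 47.0, 48.6 and 58.6 in G7. All G7 libraries were below all WT libraries there, by −15.2 ± 4.15 (adjusted p = 0.0733), beside −2.26 for its surroundings. Without the replicate 1 libraries the *Col3a1* difference was −9.97 (adjusted p = 0.221). That of *Col1a2* in B10 was then 5.75 (adjusted p = 0.165). Those of *Lox* were 6.54 in B10 (adjusted p = 0.122) and 6.56 in G7 (adjusted p = 0.146).

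For *Postn* no consensus region covered a protein-coding start of the GENCODE annotation. The nearest region (chr3:54358370-54359133), 2.4 kb upstream of the start, ended 134 bases before a second, more upstream start that RefSeq lists for the gene. It ranked 84.3, 79.8 and 76.0 in WT, 77.1, 68.9 and 69.99 in B10 and 84.9, 79.9 and 76.7 in G7. The B10 difference was −8.02 ± 3.28 (adjusted p = 0.159), and with replicate number as a block it passed (adjusted p = 0.0129). Without the replicate 1 libraries and without the block it was −8.44 (adjusted p = 0.0631). The 120 bases before the RefSeq start nearest to that GENCODE start (GRCm38.p6, plus strand, chromosome 3, 54360987 to 54361106) are shown because no consensus region covers them. They hold TATAAA, in capitals, beginning 26 bases before the start, letters found in 6.33% of the 32446 upstream windows of this length from RefSeq.
Postn, before the start: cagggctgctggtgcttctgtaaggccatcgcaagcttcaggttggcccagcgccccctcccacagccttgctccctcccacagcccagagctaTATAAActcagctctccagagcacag

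Across the 117 regions in the fit, calls in either clone were few. At the adjusted threshold the shares against WT lay near the background, except that lower calls in B10 were fewer. In B10, 9 ranked higher than WT (7.69%, where 8.28% of all 47431 regions did) and 2 ranked lower (1.71%, background 4.6%). In G7, 4 ranked higher (3.42%, background 4.06%) and 6 lower (5.13%, background 3.55%). At an unadjusted p under 0.05 by limma, 7 were higher and 23 lower in G7, where 12.2% and 11.9% of all regions were. All G7 libraries lay below all WT libraries at 30 regions (25.6%, against 15.1% of all). They lay above at 7 (5.98%, against 14.2%). B10 ranked above G7 at 7 (5.98%, background 2.92%) and below G7 at 0 (background 1.9%). At an unadjusted p under 0.05, 3 were below G7, where 6.97% of all regions were. With log2 fold enrichment in place of the rank, 7 were below G7 at that unadjusted p, where 7.20% of all regions were, and 1 passed the adjusted threshold. Regions of 1 locus share their surroundings and are not independent of each other.

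Same-numbered libraries of the 3 lines deviated together, and with replicate number as a block more regions passed. In B10, 19 were then higher (background 16%) and 7 lower (background 9%). In G7, 8 were higher (background 8.5%) and 14 lower (background 8.56%). B10 ranked above G7 at 18 (background 7.86%) and below at 2 (background 4.02%). Without the replicate 1 libraries the counts were 9, 2, 3, 4, 5 and 0 in the order of the unblocked counts, and without all replicate 2 or all replicate 3 libraries each of the 6 counts was 0. Single libraries mattered too. Without B10 replicate 2 the 9 became 5 and the 7 became 0, and without WT replicate 3 the 6 became 0. Of 13 calls at named regions, 6 held without all replicate 1 libraries. At an unadjusted p under 0.05 by limma without the replicate 1 libraries, the 6 counts were 22, 8, 12, 25, 35 and 6. The shares of all regions there were 21.61%, 12.15%, 14.8%, 13.64%, 16.75% and 8.34%. At the adjusted threshold the share of all regions called was not taken with libraries left out. These changes in calls therefore cannot be read as particular to the matrix regions.

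The median rank difference from WT was 1.05 in B10 and −2.98 in G7, beside 0.702 and −0.0350 over all regions. B10 ranked above G7 at 91 of the 117 regions, with a median difference of 4.95 (77.8% of regions above 0), beside 1.06 (59.8%) over all regions. Whole chromosomes were shifted as well. On chromosome 1 the median of all regions was −2.39 in G7, on chromosome 2 −3.90, and on chromosome 6, which carries *Col1a2*, 5.68 in B10. With the median of each chromosome removed, the median difference of the matrix regions was −1.27 in G7, −1.10 in B10 and 0.0893 between B10 and G7. Regions where B10 ranked above G7 fell from 7 to 1 and those lower in G7 than WT from 6 to 1. At an unadjusted p under 0.05 by limma they then numbered 9 and 11, where 7.45% and 9.51% of all regions passed. The source of the chromosome shifts was not tested.

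**Figure D2:**
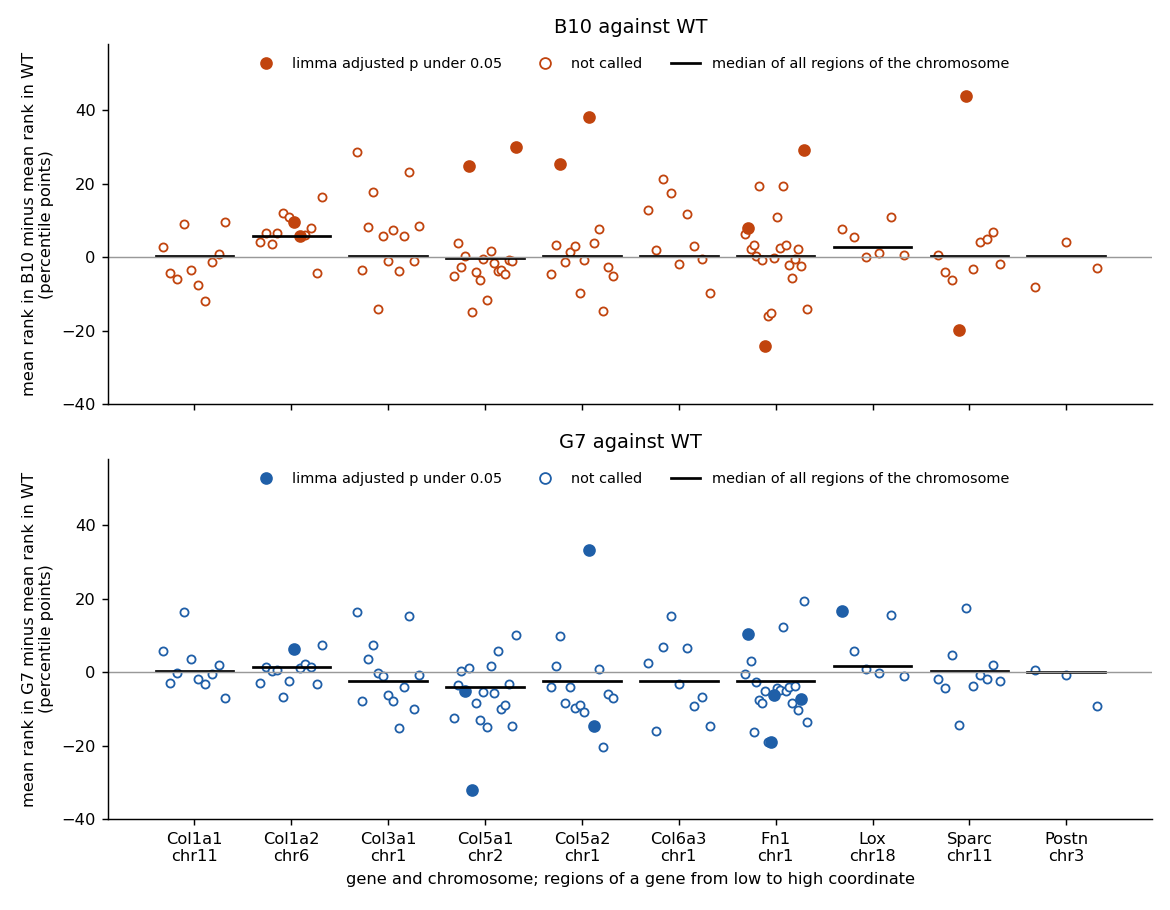
Mean rank in B10 (top) or G7 (bottom) minus mean rank in WT, in percentile points, for each of the 117 matrix regions with a peak in all 9 libraries, grouped by gene. Filled points passed an adjusted p of 0.05 by limma, and black lines mark the median of all regions of the same chromosome; the *Sparc* intron stands highest in B10 (44.0) and a *Col5a2* region highest in G7 (33.2), while most points of *Col1a2* lie along a raised line in B10 (5.68).

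Among regions in the fit, only *Sparc* and the collagen V genes had differences from WT of over 30 points. For collagen I, *Col1a1* had no region that passed in either clone among 10 in the fit, though with the replicate block 2 were lower in B10 than in WT and 1 lower than in G7. An intronic *Col1a1* region (chr11:94939113-94939523), 3.27 kb inside the gene, had no peak in any WT library. It had a peak in B10 replicates 2 and 3 (ranks 21.2 and 28.1) and in all G7 libraries (23.1, 27.7 and 27.3). These are weak peaks in the lower part of their libraries.

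Around *Col1a2*, 11 of 12 regions in the fit were higher in B10 than in WT (56.1% over all regions). Their median difference was 6.67, and the surroundings of the gene rose by 6.41. With the replicate block 4 rather than 2 were called higher in B10. The smallest adjusted p was at a region 47.9 kb upstream (chr6:4456077-4458038), which was called but is outside the rule for named regions. It ranked 78.1, 79.5 and 78.1 in WT, 88.9, 88.8 and 86.5 in B10 and 86.7, 83.9 and 83.9 in G7, with no overlap between WT and either clone. Its differences were 9.53 ± 1.32 in B10 (adjusted p = 0.00552) and 6.23 ± 1.32 in G7 (adjusted p = 0.0338). With chromosome medians removed neither passed, at 2.25 ± 1.295 in B10 (adjusted p = 0.323) and 4.42 ± 1.295 in G7 (adjusted p = 0.0967). A region 20.8 kb upstream (chr6:4483750-4484220) had no peak in WT, peaks in B10 replicates 1 and 3 (39.9 and 12.7), and peaks in all 3 G7 libraries (54.3, 31.6 and 20.2).

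*Col5a2* held the region that was higher in each clone with the widest margin in common. This intergenic region, 84.5 kb upstream of the start (chr1:45587366-45588223), ranked 39.4, 24.2 and 19.3 in WT. It ranked 65.5, 66.2 and 65.6 in B10 and 65.6, 58.1 and 58.6 in G7, so neither clone overlapped WT. The differences were 38.1 ± 4.92 (adjusted p = 0.00433) and 33.2 ± 4.92 (adjusted p = 0.0103), while regions within 5 Mb moved by 1.12 and −1.69. Its fold enrichment was 5.28 to 8.02 in WT, 12.0 to 12.7 in B10 and 9.67 to 13.9 in G7. Without the replicate 1 libraries the differences were 44.1 (adjusted p = 0.00468) and 36.6 (adjusted p = 0.0107). Farther upstream the order of the lines was different. The region at chr1:45597139-45597968 ranked 67.1, 70.8 and 73.2 in WT, 69.5, 78.1 and 75.5 in B10 and 56.2, 51.1 and 59.6 in G7, and B10 exceeded G7 by 18.8 ± 3.08 (adjusted p = 0.0190).

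With the replicate block *Col5a2* had 2 regions called higher and 2 lower in G7, against 1 and 1 without it, and 1 lower in B10, against 0. Inside the *Col5a2* gene, 3 intronic regions were called in B10, by rank or by presence. One, 23995 bp from the start (chr1:45479240-45479780), ranked 33.6, 37.3 and 25.998 in WT, 63.6, 58.8 and 50.8 in B10 and 47.1, 45.7 and 33.4 in G7. B10 lay above WT by 25.4 ± 5.01 (adjusted p = 0.0192), and G7 by 9.75 ± 5.01, which passed only with the replicate block (adjusted p = 0.292 without it and 0.0280 with it). The B10 difference did not pass without the replicate 1 libraries (23.2, adjusted p = 0.0810). Another, 74.3 kb from the start (chr1:45428702-45429184), had no peak in WT. It stood at 62.7, 45.6 and 59.7 in B10, with the highest single rank (62.7) of the regions gained in B10, and at 2.55, 9.68 and 0.604 in G7, close to the lowest peaks of those libraries. The last of them (chr1:45410719-45411292), whose nearest start is that of *Col3a1*, had peaks in the B10 libraries only, at 34.6, 34.9 and 29.1, in the lower part of those libraries. A region over an exon of *Col5a2* counted for *Col3a1* (chr1:45394136-45394558) also had peaks in the B10 libraries only, at 44.5, 18.3 and 8.995.

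*Col3a1*, the neighbour of *Col5a2* on chromosome 1, had 13 regions in the fit and none that passed in either clone. With the replicate block 3 were higher in B10 and 1 in G7. By presence, 4 of its 26 regions were gained in B10 and 3 lost, and in G7 0 were gained and 2 lost. Over all consensus regions 10.4% were gained and 7.58% lost in B10, and 5.69% and 7.42% in G7. A region 270.0 kb upstream (chr1:45041235-45041611) had peaks in WT replicates 2 and 3 (32.5 and 27.9) and in G7 replicate 3 (15.4), and none in B10. One at chr1:45101535-45101979 had peaks in the 3 B10 libraries (45.5, 8.88 and 14.8) and in G7 replicate 1 (8.75), and none in WT.

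*Col5a1* had a pair of neighbouring regions, 367 bp apart, 1 of them called in B10 and the other in G7. The one 39.3 kb upstream (chr2:27846823-27847598) ranked 54.5, 42.8 and 42.1 in WT, 72.0, 71.1 and 70.3 in B10 and 49.9, 51.2 and 41.5 in G7. B10 stood above WT by 24.7 ± 3.88 (adjusted p = 0.00872) and above G7 by 23.6 ± 3.88 (adjusted p = 0.0190), whereas G7 differed from WT by 1.09 ± 3.88 (adjusted p = 0.908). The one 37.8 kb upstream (chr2:27847966-27848894) ranked 71.5, 60.9 and 64.6 in WT, 46.3, 53.2 and 53.4 in B10 and 37.3, 20.6 and 42.9 in G7. Both clones lay below WT without overlap, and only the G7 difference of −32.1 ± 5.83 passed (adjusted p = 0.0208). For B10 it was −14.7 ± 5.83 (adjusted p = 0.147), and the difference between the clones did not pass either (17.4 ± 5.83, adjusted p = 0.152). Without the replicate 1 libraries the G7 difference was −31.1 (adjusted p = 0.0839), while that of the first region in B10 still passed (28.3, adjusted p = 0.0157).

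An intronic *Col5a1* region 8.98 kb before the second start of the gene (chr2:28007546-28009058) ranked 47.7, 44.2 and 60.8 in WT, 79.7, 82.5 and 80.8 in B10 and 61.3, 54.6 and 66.9 in G7. B10 was higher by 30.1 ± 4.71 (adjusted p = 0.00868), and G7 overlapped WT (10.0 ± 4.71, adjusted p = 0.249). B10 exceeded G7 by 20.04 ± 4.71 (adjusted p = 0.0607, and 0.0314 with the replicate block). That B10 call did not hold without the replicate 1 libraries (29.1 above WT, adjusted p = 0.0621). A region 81.8 kb upstream (chr2:27804477-27804683) had peaks in WT replicates 2 and 3 (49.3 and 33.6) and G7 replicate 2 (35.7), and none in B10. Of the 18 *Col5a1* regions in the fit, 13 were below WT in B10 and 13 in G7. Over all regions 56.1% were above WT in B10 and 49.5% in G7. The *Col5a1* regions called lower in G7 numbered 2, and 5 with the replicate block, which also called 1 lower in B10. The median differences were −2.06 in B10 and −5.50 in G7, beside −0.245 and −3.90 for chromosome 2.

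*Col6a3*, of the beaded-filament collagen VI, had 9 regions in the fit and none that passed. With the replicate block 3 were higher in B10 and 1 in G7. A weak region 33.2 kb upstream (chr1:90877034-90877351), with peaks in WT replicates 1 and 3 (23.9 and 13.3), had none in either clone.

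**Figure D3:**
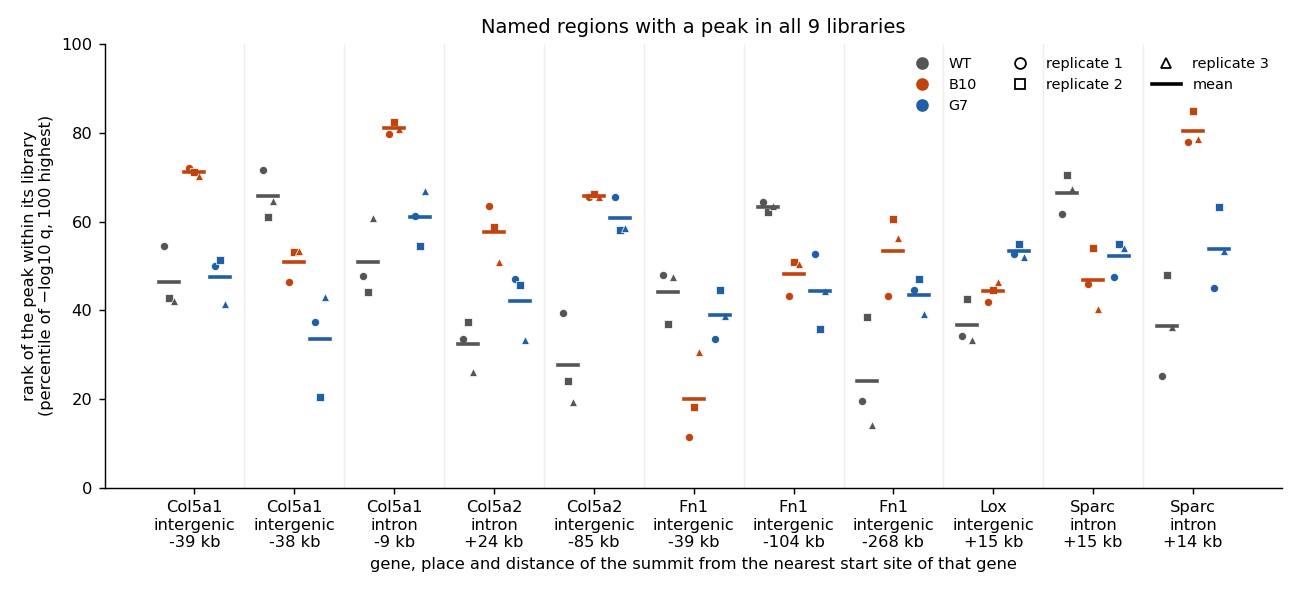
Rank within the library of the 11 named regions that had a peak in all 9 libraries, by gene, place and distance from the nearest start site. Each point is 1 library, coloured by line and shaped by replicate, and bars are means of 3; at the *Sparc* intron +14 kb B10 stands at 77.8 to 85.0 against 25.3 to 48.0 in WT, and at *Col5a2* −85 kb both clones (58.1 to 66.2) stand above WT (19.3 to 39.4).

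*Fn1*, for fibronectin, had 22 regions in the fit, 18 of them below WT in G7. Over all regions 49.5% were above WT in G7. The chromosomal surroundings of *Fn1* were lower too, with a median of −3.74 within 5 Mb. As lower in G7, 3 of its regions passed (background 3.55%), or 6 with the replicate block (background 8.56%). A region 104 kb upstream (chr1:71757136-71757638) ranked 64.4, 62.1 and 63.4 in WT, 43.2, 51.0 and 50.4 in B10 and 52.8, 35.7 and 44.4 in G7. Both clones lay below WT without overlap, and the difference passed in G7 (−19.0 ± 4.22, adjusted p = 0.0396) but not in B10 (−15.1 ± 4.22, adjusted p = 0.0587), and the clones differed by 3.88 ± 4.22 (adjusted p = 0.677). With chromosome medians removed the order of the calls turned over, with −15.4 in G7 (adjusted p = 0.0826) and −16.5 in B10 (adjusted p = 0.0483).

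A region 38.5 kb upstream of *Fn1* (chr1:71691458-71692351) was lower in B10. It ranked 47.9, 36.9 and 47.5 in WT, 11.5, 18.1 and 30.5 in B10 and 33.5, 44.6 and 38.8 in G7, and the B10 difference was −24.1 ± 5.54 (adjusted p = 0.0324). G7 overlapped WT, and the difference of B10 from G7 did not pass (−18.9 ± 5.54, adjusted p = 0.111). Without the replicate 1 libraries the B10 difference was −17.9 (adjusted p = 0.118). At 268 kb upstream (chr1:71921531-71921821) B10 was higher, at 43.3, 60.6 and 56.3 against 19.6, 38.5 and 14.2 in WT, with G7 at 44.6, 47.0 and 39.1. The difference was 29.3 ± 6.98 in B10 (adjusted p = 0.0362) and 19.4 ± 6.98 in G7 (adjusted p = 0.145). The call in B10 was lost without the replicate 1 libraries (32.1, adjusted p = 0.0807). A region 91.7 kb upstream (chr1:71744813-71745107) had no peak in WT, peaks in all B10 libraries (34.6, 24.9 and 14.8) and 1 in G7 replicate 1 (21.6).

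*Lox*, for the cross-linking enzyme, had 6 regions in the fit. The region 15.1 kb after its start, past the end of the gene (chr18:52513460-52515415), ranked 34.1, 42.5 and 33.3 in WT, 41.8, 44.5 and 46.4 in B10 and 52.7, 55.0 and 52.1 in G7. G7 was higher than WT by 16.6 ± 2.65 (adjusted p = 0.0132), with no overlap. The fold enrichment of the same peaks did not separate the lines, at 4.64 to 5.66 in WT and 4.89 to 5.07 in G7, and the rank of fold enrichment differed by 1.57 (adjusted p = 0.848). The difference in rank did not pass without the replicate 1 libraries (15.6, adjusted p = 0.0702). A region 34.6 kb upstream (chr18:52563671-52564673) had no peak in WT, ranks of 44.4, 53.2 and 36.3 in B10 and ranks of 4.61, 47.7 and 24.7 in G7.

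*Sparc*, for a collagen-binding matricellular protein, held the largest rank difference of the matrix regions in the fit, and in B10 its neighbour 511 bp away moved the other way. The intronic region 13.7 kb after the start (chr11:55405874-55406602) ranked 25.3, 48.0 and 36.2 in WT, 77.8, 85.0 and 78.5 in B10 and 44.9, 63.2 and 53.3 in G7. B10 was higher than WT by 44.0 ± 6.52 (adjusted p = 0.00719), and its fold enrichment was 11.4 to 14.2 against 4.75 to 6.69. G7 stood between, 17.3 ± 6.52 above WT, which passed only with the replicate block (adjusted p = 0.161 without it and 0.0222 with it). B10 exceeded G7 by 26.6 ± 6.52 (adjusted p = 0.0683, and 0.0113 with the block). Without the replicate 1 libraries B10 was higher by 39.7 (adjusted p = 0.0210).

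The neighbouring intronic *Sparc* region (chr11:55404771-55405362) ranked 61.8, 70.4 and 67.3 in WT, 46.0, 54.1 and 40.3 in B10 and 47.5, 55.0 and 54.0 in G7. Neither clone overlapped WT. B10 was lower by −19.7 ± 4.03 (adjusted p = 0.0219), and G7 by −14.3 ± 4.03 (adjusted p = 0.0789, and 0.0316 with the replicate block). The B10 call was lost without the replicate 1 libraries (−21.6, adjusted p = 0.0538). Its summit window, unlike that of the region that rose, holds TGACTCA, 38 bases before the summit. Regions within 5 Mb of both moved by 0.858 in B10 and 0.349 in G7. At 16.7 kb upstream of *Sparc* (chr11:55439732-55439998) a weak peak was present in B10 replicates 2 and 3 (7.48 and 7.78) and in all G7 libraries (23.2, 27.3 and 13.2), and in no WT library.

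*Postn*, for periostin, had 3 regions in the fit and none that passed, though with the replicate block 1 was higher and 1, the start region, lower in B10. Only a region 74.8 kb after the start (chr3:54452298-54452537) met the rule for presence, with ranks of 3.94 and 6.05 in B10 replicates 1 and 2. A stronger pattern, singled out after its values were seen, was at 15.1 kb after the start (chr3:54392215-54392970). That region ranked 23.9 in WT replicate 1, had no peak in the other WT libraries, and ranked 76.7, 65.1 and 58.4 in B10 and 57.1, 36.2 and 19.4 in G7. It was not called gained because of the single WT peak.

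By presence, the matrix regions tended to have a peak in more B10 libraries than WT libraries. The number with a peak was 170, 171 and 164 in WT, 184, 193 and 192 in B10 and 169, 175 and 178 in G7. B10 libraries also held a peak at more of all consensus regions, 78.0% to 82.6% against 74.6% to 76.1% in WT. In B10, 21 regions were gained (9.68%, background 10.4%) and 7 were lost (3.23%, background 7.58%). In G7, 9 were gained (4.15%, background 5.69%) and 8 lost (3.69%, background 7.42%). Between the clones, 11 had a peak in at least 2 B10 libraries and no G7 library (5.07%, background 8.25%), and 4 the reverse (1.84%, background 4.24%). With only the 76385 strongest peaks of each library kept, 9 rather than 21 were gained in B10. Leaving out WT replicate 1 gave 33 gained in B10 and 21 in G7, and leaving out B10 replicate 2 gave 8 in B10. For these changed settings the share over all consensus regions was not taken. The median rank at gained regions was only 13.7 over 48 peaks in B10 and 18.4 over 23 peaks in G7.

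**Figure D4:**
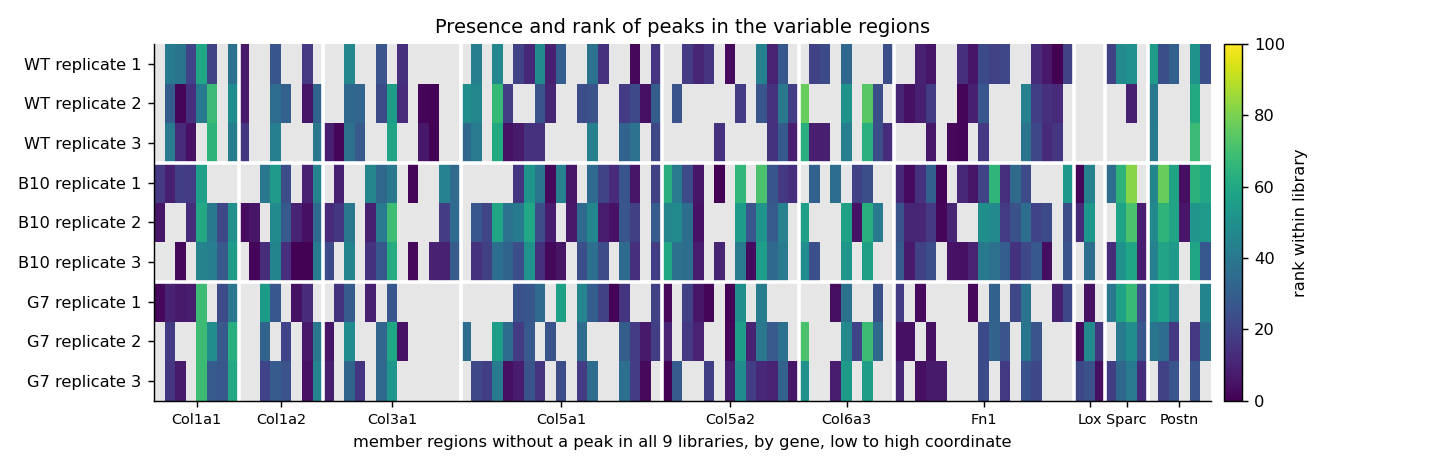
Presence and rank of peaks at the 100 matrix regions without a peak in all 9 libraries. Columns are regions ordered by gene and position, rows are libraries, grey cells have no peak and colour gives the rank within the library (0 to 100); blocks that are grey in WT and coloured in B10 are the 21 gained regions, most of them in the dark, low-rank part of the scale.

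Other genes that build or handle collagen were set beside these 10, as a list of 58 genes of which 56 had a consensus region. Of their 358 regions in the fit, 35 (9.78%) ranked higher and 12 (3.35%) lower in B10, and 24 (6.70%) higher and 9 (2.51%) lower in G7. The shares over all regions were 8.28% and 4.6% in B10 and 4.06% and 3.55% in G7. By presence, 88 of 730 (12.1%, background 10.4%) were gained and 49 (6.71%, background 7.58%) lost in B10. In G7, 45 (6.16%, background 5.69%) were gained and 40 (5.48%, background 7.42%) lost. With a missing peak set to rank 0, the 5 called regions with the largest differences had their nearest start at *Col16a1*, *Thbs1*, *Plod2*, *P4ha1* and *Dcn*. The region 10.6 kb upstream of *Col16a1* (chr4:130036074-130037655), which encodes a collagen found at fibril surfaces, ranked 95.7, 95.0 and 95.5 in WT, 37.1, 47.2 and 33.3 in B10 and 57.7, 60.6 and 63.6 in G7. The differences were −56.2 ± 3.45 in B10 (adjusted p = 0.000434) and −34.8 ± 3.45 in G7 (adjusted p = 0.00291). Distances of the next regions from their nearest start are signed, with upstream negative. The region of *Plod2*, for a collagen lysyl hydroxylase, lay at 340.32 kb. That of *P4ha1*, for a prolyl hydroxylase subunit, lay at −16.95 kb. Neither had a WT peak, and they ranked 62.4, 52.3 and 47.6 and 70.2, 51.1 and 34.5 in B10. In G7 the *Plod2* region ranked 32.3, 24.1 and 21.8, and the *P4ha1* region had no peak. The region of *Thbs1*, for thrombospondin, lay at −99.48 kb and that of *Dcn*, for decorin, at −237.93 kb. They ranked 35.1, 61.4 and 58.9 and 43.5, 57.7 and 60.01 in WT, and neither had a peak in G7. In B10 the *Thbs1* region ranked 42.3 and 20.2 in replicates 2 and 3. The *Dcn* region ranked 36.6 and 35.6 in B10 replicates 1 and 3.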

How the data were processed

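Chromatin accessibility was measured by Omni-ATAC-seq in 3 WT, 3 B10 and 3 G7 libraries. The authors checked reads with Rfastp, aligned them in pairs to mm10 with Rsubread and called peaks per replicate with MACS2 in BAMPE mode, and the MACS2 version is not given in the sources used here. The deposited peak lists give per peak a fold enrichment (a ratio of signal to background), −log10 p-values and q-values, and a display score. The methods for ATAC-seq name no input, but the deposited peak names mention one, so what the ratio is relative to is unclear. The score was not used. The lists carry no read counts, so depth is unknown and the DESeq2 test of the study could not be run.

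Touching peaks of all 9 libraries on chromosomes 1 to 19, X and Y were merged (135835 regions), and 97338 with a peak in at least 2 of 3 libraries of a line were kept. Each was given the gene of the nearest protein-coding transcript start (GENCODE M21, mm10). Where a library had several peaks in a region, the strongest gave the rank. Ranks at the 47431 regions with a peak in all 9 libraries were fitted on line with limma 3.58.1 in R 4.3.3, the variance was moderated over all regions, and p-values were two-sided and adjusted by Benjamini-Hochberg over all regions, with calls at 0.05. The fit was tested on simulated data whose noise was independent between libraries. That simulation therefore does not test the fit where same-numbered libraries deviate together. Alternatives were the replicate block, other measures of peak strength, other presence rules, chromosome medians removed, other start-site rules and leaving out libraries. Gained means a peak in at least 2 of 3 libraries of one line and 0 of the other, and lost the reverse. A single region cannot pass an exact test of 3 against 3 libraries, where the smallest p is 0.1. The labels do not say that replicates were separate cultures, and the methods speak of sequencing in duplicates although 3 libraries a line were deposited, so p-values measure only the spread between these libraries, which may be technical. Deviations of same-numbered libraries from their line means correlated in all 9 pairs (r 0.3136 to 0.6638, against −0.5608 to 0.311 for different numbers). Apart from replicate 1 the gap was slight, with 0.3136 for replicate 3 of B10 and G7 and 0.311 for WT replicate 3 and G7 replicate 2. A shift of replicate 1 shared by the lines would also raise the values between replicates 2 and 3, so these correlations cannot settle their pairing. The blocked fit is given where it changes a call at a named region or the counts of a gene against WT by over 1.5 times. No pair of libraries shared over 0.379% of identical peaks.

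The 10 genes, the other lists and the tests were chosen with earlier results of these data known. Every gene is named with the region within 3 kb of a start that ranked highest on average, and beyond these 24 of 53 regions called in either clone are named, those with the largest difference (a missing peak set to rank 0), at most 4 and at least 1 a gene where it had any, and 5 regions of the list of other matrix genes. Promoter windows came from the RefSeq table (GRCm38.p6), which held *Col1a2*, *Col3a1*, *Col5a1*, *Col6a3*, *Sparc* and *Postn*. *Col1a1*, *Col5a2*, *Fn1* and *Lox* had no entry.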

Additional observations from a re-analysis of the deposited data

Results flagged for a closer look

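At 7 matrix regions the clones differed from each other by the limma contrast of B10 minus G7, and in each B10 ranked above G7. The differences were 26.9 at the region 19.2 kb upstream of *Fn1* (chr1:71671735-71672833, adjusted p = 0.0498) and 8.31 at the one 227.5 kb upstream (chr1:71880284-71881071, adjusted p = 0.0380). Near *Col5a2* (chr1:45597139-45597968) the difference was 18.8 (adjusted p = 0.0190). Around *Col5a1* it was 23.6 at chr2:27846823-27847598 (adjusted p = 0.0190), 7.41 at chr2:27818398-27819363 (adjusted p = 0.0390) and 5.495 at chr2:27834902-27836697 (adjusted p = 0.0477). At the *Col1a2* region 96.9 kb upstream (chr6:4407658-4408357) it was 7.04 (adjusted p = 0.0190). With chromosome medians removed only the *Col5a1* region with 23.6 still passed, and the cause of the chromosome shifts was not tested.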

How the results depend on the processing

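Counts of called regions depended on the settings, while no named difference changed sign with a call. Under the replicate block, ranked-higher and ranked-lower counts went from 9 and 2 to 19 and 7 in B10, from 4 and 6 to 8 and 14 in G7, and from 7 and 0 to 18 and 2 between the clones. All 13 calls at named regions kept their call under the block, and 4 more differences from WT passed, given above. Differences between the clones were followed in this count only where they were called without the block. Of the others, those at the intronic *Col5a1* region and at the *Sparc* region 13.7 kb after the start also passed with the block, as given above. Fewer were kept elsewhere, with 8 of 13 kept by the rank of fold enrichment, 12 with chromosome medians removed, 6 without replicate 1 and 0 without replicate 2 or replicate 3. Single libraries left 7 (without WT replicate 3) to 12 (without G7 replicate 1), and 8 without B10 replicate 2. The 3 *Fn1* calls and the *Col5a2* intron call were lost both without WT replicate 3 and without B10 replicate 2. With the rank of fold enrichment the higher counts were 5 in B10, 1 in G7 and 1 for B10 over G7, and the lower count in G7 was 1. With log2 fold enrichment these were 5, 1, 1 and 2, and 1 region was lower in B10 than in G7. With a missing peak as rank 0, 17 were higher in B10. Removing chromosome medians left 1 lower in G7 and 1 higher in B10 than in G7. Within 50 kb of the start, 2 were lower in G7, 3 higher in B10 than in G7, 12 gained and 3 lost in B10, 4 lost in G7, and 5 present in B10 and not G7. An equal number of peaks per library gave 9 gained in B10, and 3 present in B10 and not G7. Keeping only regions with a peak in 3 of 3 libraries of some line, with gained and lost defined as before, gave 9 gained and 1 lost in B10. It gave 5 gained and 3 lost in G7, and 4 and 1 between the clones. At −log10 q of at least 3, 0 were present in G7 and not B10. Some settings keep fewer peaks, libraries or regions, and the cause of these moves was not tested. Apart from the replicate block, the share of all regions called at the adjusted threshold was not taken under these settings. The moves therefore cannot be read as particular to the matrix regions.

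Leaving out libraries, the higher and lower counts ranged from 0 to 10 and 0 to 4 in B10, from 0 to 4 and 0 to 5 in G7, and from 0 to 6 and 0 to 1 between the clones. Gained and lost counts ranged from 8 to 33 and 2 to 9 in B10, from 5 to 21 and 3 to 11 in G7, and from 4 to 21 and 1 to 6 between the clones. Without all replicate 2 or all replicate 3 libraries 0 regions passed in the fit of ranks, and without all replicate 1 libraries 9 were higher in B10. In each case 6 libraries were left, and the reason for the difference was not tested. Without WT replicate 1, 33 were gained in B10 and 21 in G7, without B10 replicate 2, 8 were gained in B10, and without WT replicate 3, 0 were lower in G7. Lower counts in G7 also fell to 1 without WT replicate 2 or G7 replicate 3, to 2 without G7 replicate 1 and to 3 without B10 replicate 2 or 3. Leaving out B10 replicate 1 or 3 gave 12 or 13 gained in B10, and leaving out WT replicate 2 or G7 replicate 3 gave 14 or 5 gained in G7. Lost regions in B10 numbered 4, 3 and 2 without WT replicate 1, 2 or 3, and in G7 5 and 3 without WT replicate 1 or 3. Without B10 replicate 1, 2 or 3, regions higher in B10 than in G7 numbered 1, 0 and 1, and without G7 replicate 1, 2 or 3 they numbered 3, 2 and 1. Without WT replicate 2 they numbered 3. The 2 calls at the *Col5a2* region 84.5 kb upstream held without each single library. All these counts are of matrix regions, without the share over all regions under the same setting. Depth is unknown, so a missing peak may lie just under the threshold of the authors.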

Other observations

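Several *Sparc* and *Postn* regions lacked a peak in 1 or more WT libraries but had a peak in all B10 libraries, and they were singled out after their values were seen. The region 14.9 kb upstream of *Sparc* (chr11:55437712-55438423) ranked 50.001 and 8.87 in WT replicates 1 and 2 and had no peak in replicate 3. It stood at 82.2, 71.2 and 58.7 in B10 and at 67.4, 48.8 and 41.6 in G7. The *Postn* region 57.2 kb after the start (chr3:54434378-54435099) had a peak in WT replicate 1 only (30.9), and ranked 58.4, 58.5 and 54.1 in B10 and 45.2, 16.6 and 26.4 in G7. The *Postn* region 116 kb after the start (chr3:54492991-54493377) likewise had 1 WT peak (23.9), and ranked 60.1, 53.6 and 27.5 in B10 and 45.2 and 36.2 in G7 replicates 1 and 2. In each of these regions the WT replicate 1 library held a peak, so none met the rule for gained.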
